A study of Mus musculus with 6 samples.

Results

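Nuclear genes that code for subunits of the oxidative phosphorylation machinery were followed in RNA sequencing of mouse aorta from young and aged animals. The members were all rows of the count table whose gene symbol is that of a nuclear subunit of complexes I to V (Nduf, Sdh, Uqcr, Cyc1, Cox and Atp5 symbols), which gave 79 genes of the 55335 in the table. Complex I held 37 of them, complex II 4, complex III 9, complex IV 12 and complex V 17, and every member had enough reads to be tested. The young group was 3 wild-type C57BL/6 mice aged 6 weeks and the aged group 3 wild-type C57BL/6 mice aged 6 months, with 1 library from the aorta of each mouse and no further treatment or allele. The study describes all of the animals as male. A mouse of 6 months is a mature adult, so the comparison spans the time from adolescence to adulthood, and each library mixes all cell types of the vessel wall and whatever tissue remained on it after the surrounding fat was dissected away.

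Oxidative phosphorylation takes place in the inner mitochondrial membrane. Complexes I and II pass electrons from NADH and succinate to ubiquinone, complex III passes them on to cytochrome c, complex IV hands them to oxygen, and complex V, the ATP synthase, uses the proton gradient built by complexes I, III and IV to make ATP. Most subunits are coded in the nucleus and imported, while a small core is coded in the mitochondrial genome. Vascular smooth muscle keeps a modest set of mitochondria, whereas brown adipocytes and heart muscle, both of which can lie against the aorta, are among the tissues richest in them. A gene named Ndufa4 falls under complex I by its symbol but is now counted as a complex IV subunit, and Atp5s and Atp5sl carry the ATP synthase symbol without being subunits of it. Leaving both of these out changed the numbers little, with 73 of 77 genes higher in the aged group in place of 74 of 79.

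Library depth ran from 31049632 to 45832185 counts. Levels are given as CPM (counts brought to a common library size, with the TMM factor that corrects for differences in library composition) when libraries are compared, and as the deposited FPKM (reads scaled to gene length and library size) when genes are compared. Smooth muscle markers dominated every library, with Acta2 between 12229 and 18120 CPM and Myh11 between 6152 and 10139 CPM. Of the 6 libraries, 3 stood apart. Young replicate 1 held 305.6 CPM of Xist, the transcript of the inactive X chromosome, where the other libraries held at most 0.64 CPM, and its Y-linked Eif2s3y was at 0.85 CPM against 56.4 CPM or more elsewhere, which goes against a male animal. The same library was the highest for cardiac muscle markers, whose summed level of 14 genes was 519.6 CPM against 107.8 to 134.5 CPM in the other 5. Aged replicate 2 was the highest for brown adipocyte markers, with a sum over 12 genes of 2259 CPM against 253.7 to 868.0 CPM, and with Ucp1, the uncoupling protein that defines brown fat, at 1422 CPM against 45.2 to 360.6 CPM. Aged replicate 3 was the highest for endothelial markers, with a sum over 10 genes of 1953 CPM against 453.1 to 595.0 CPM. The median change of the members is given with and without each of these libraries, and that of single members for some of them. Values of the other gene lists are given with all 6 libraries only. In whole-vessel RNA, fewer cells of a type and less RNA per cell cannot be told apart.

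Taken by level per length, the members spanned a range from 1.86 FPKM (Atp5s, mean of 6 libraries) to 186.2 FPKM (Cox6a1), with a median of 34.0 FPKM. The order of the complexes by median FPKM was complex IV (64.2 FPKM), complex III (53.9), complex II (43.7), complex V (30.1) and complex I (28.6). Within complex IV, Cox6a1 (186.2 FPKM) and Cox6b1 (145.2 FPKM), both small nuclear subunits around the catalytic core, were the most abundant by FPKM. Within complex V these were Atp5a1 (132.9 FPKM) and Atp5b (119.8 FPKM), the alpha and beta subunits of the catalytic head. Within complex III they were Uqcr10 (109.6 FPKM) and Uqcrb (107.3 FPKM), small subunits with no redox centre, and within complex I the accessory subunits Ndufa1 (75.3 FPKM) and Ndufb3 (72.5 FPKM). In complex II, Sdhd (60.4 FPKM) and Sdha (52.0 FPKM) stood above Sdhb (35.4 FPKM) and Sdhc (28.4 FPKM). The gene lengths behind these FPKM are those the authors used, and no SD over genes is attached to this order. Annotated exon lengths of the members ran from 419 to 8086 bases, so the order reflects length as well as read number.

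Together the 79 members made up a small share of the reads, 0.703, 0.728 and 0.511% in young replicates 1 to 3 and 0.655, 0.943 and 0.443% in aged replicates 1 to 3. Their summed level was 6648, 6661 and 4623 CPM in the young libraries and 6954, 10086 and 5008 CPM in the aged. The highest and the second lowest sums were thus both aged libraries, and the lowest was young replicate 3. The group means were 5977 ± 1173 CPM (SD, n = 3) and 7350 ± 2562 CPM (SD, n = 3), a difference smaller than the SD within the aged group. The same held for each complex. Complex I summed to 1781 ± 339 CPM in young and 2125 ± 625 CPM in aged aorta, complex II to 451.5 ± 111 and 568.4 ± 342.9 CPM, complex III to 787.3 ± 183.8 and 1002 ± 464 CPM, complex IV to 994.7 ± 203.3 and 1231 ± 341 CPM, and complex V to 1963 ± 359 and 2423 ± 850 CPM (SD, n = 3 each).

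**Figure D1:**
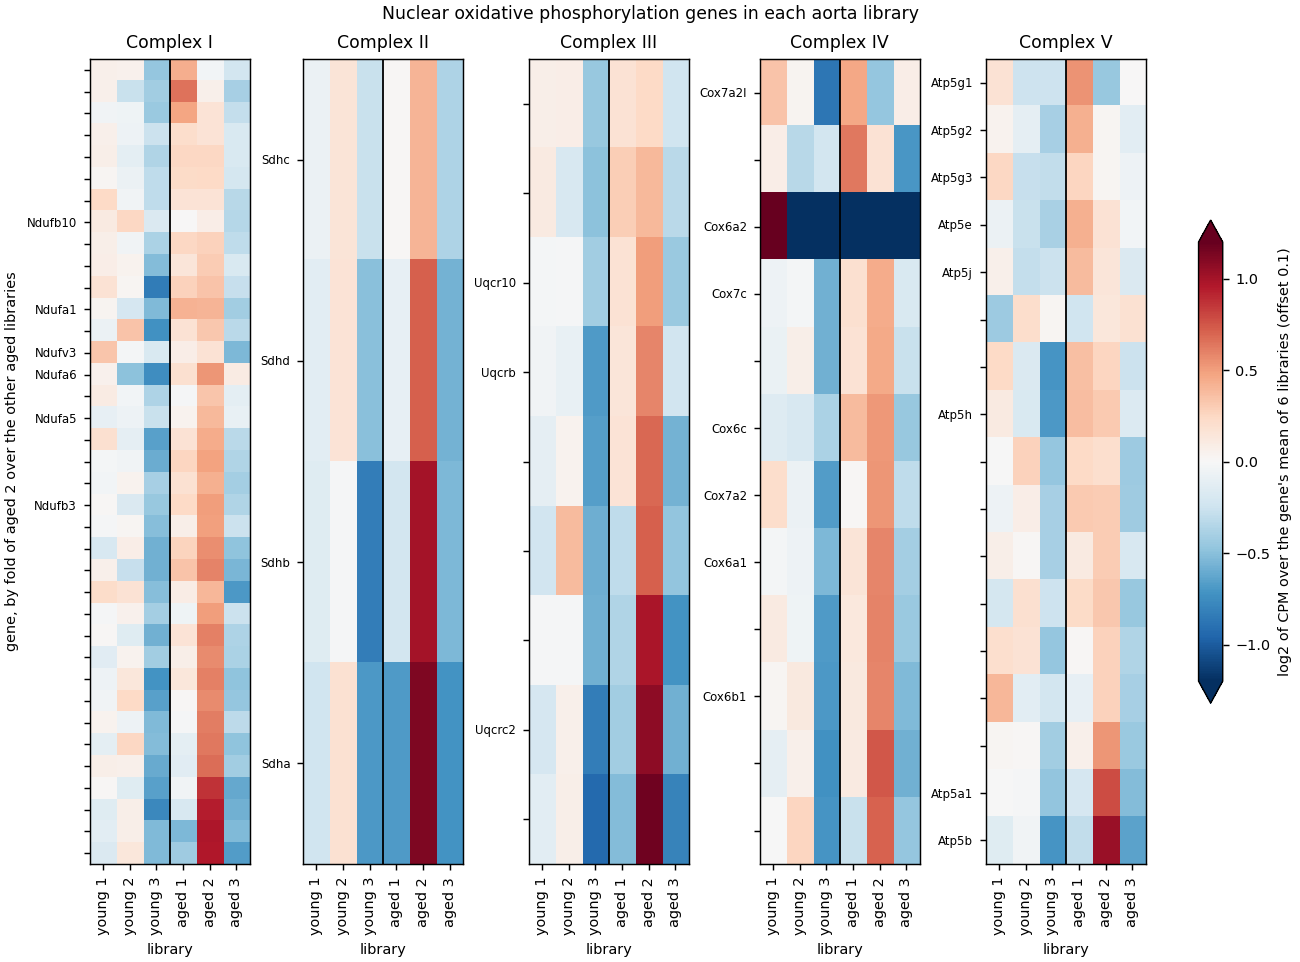
Level of each of the 79 genes in each library, as the log2 of its CPM over the mean of the 6 libraries, for young replicates 1 to 3 (left of the black line) and aged replicates 1 to 3, in a panel per complex. Genes run from the smallest to the largest fold of aged replicate 2 over the other aged libraries, and the genes described in the text are labelled. Aged replicate 2 is the highest library for 55 genes and young replicate 3 the lowest for 56, and Cox6a2 stands out in young replicate 1.

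The comparison of aged with young aorta asks which of these genes changed with age. No member passed an adjusted p of 0.05 in edgeR's quasi-likelihood test, adjusted over the 16612 genes tested, of which 0% were called. At an unadjusted p under 0.05, 2 members were higher in the aged group, Ndufa6 and Atp5e, where 5.56% of all genes were, and 0 were lower, where 4.82% of all genes were. DESeq2, which called 2.03% of all genes, called 0 members, with a smallest adjusted p of 0.26. It put 2 members at an unadjusted p under 0.05, where 1976 of all 16612 genes were. The log2 fold change was above 0 for 74 of 79 members, against 52.1% of all genes tested, and its median was 0.28 for the members and 0.02 for all genes. By complex the medians were 0.28 for complex I, 0.32 for complex II, 0.34 for complex III, 0.30 for complex IV and 0.21 for complex V. In 41 of 79 members the standard error was larger than the change itself. Ndufa6 and Atp5e were the members with every aged library above every young library in TMM-scaled CPM (7.74% of all genes), and 0 members had every aged library below (8.78% of all genes). With counts scaled by the total alone, or in the deposited FPKM, 0 members were separated, and both of these genes overlapped.

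This one-sided lean depended on which libraries were compared. Aged replicate 2 was the highest of the 6 libraries for 55 of 79 members, where it was so for 17.7% of all genes. Without it, 49 of 79 members were above 0, the median log2 fold change was 0.04 against -0.01 for all genes, 25 members changed sign, and 0 members were at an unadjusted p under 0.05. That edgeR fit had 2359 of 17147 genes at an unadjusted p under 0.05, and put 0.642% of genes and 0 members under the adjusted threshold. The medians by complex were then 0.06 for complex I, -0.15 for complex II, 0.04 for complex III, 0.07 for complex IV and 0.06 for complex V, and all 4 complex II genes were below 0. Leaving out young replicate 1, the library with Xist and cardiac markers, gave a median of 0.37, and leaving out both gave 0.13 against 0.01 for all genes. Young replicate 3, the lowest library for 56 of 79 members and for 3161 of all 16612 genes tested, also mattered. Without it the median was 0.14 against 0.03 for all genes. Leaving out aged replicate 3 raised the lean instead, to 77 of 79 members above 0 and a median of 0.46 against 0.02 for all genes. In that fit 10 members were higher at an edgeR unadjusted p under 0.05, where 1244 of all 17445 genes were under it in either direction. Leaving out a library that is the highest for most members can only lower the lean, so the direction of that shift carries no information. The direction of single members also moved with the scaling. Scaled by the total count alone, 48 of 79 members were above 0, and the median of all genes lay at -0.22. Members above the median of all genes numbered 73 of 79 under this scaling and under TMM alike. A change of scaling moves all genes by nearly the same amount, so this agreement carries no information either.

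**Figure D2:**
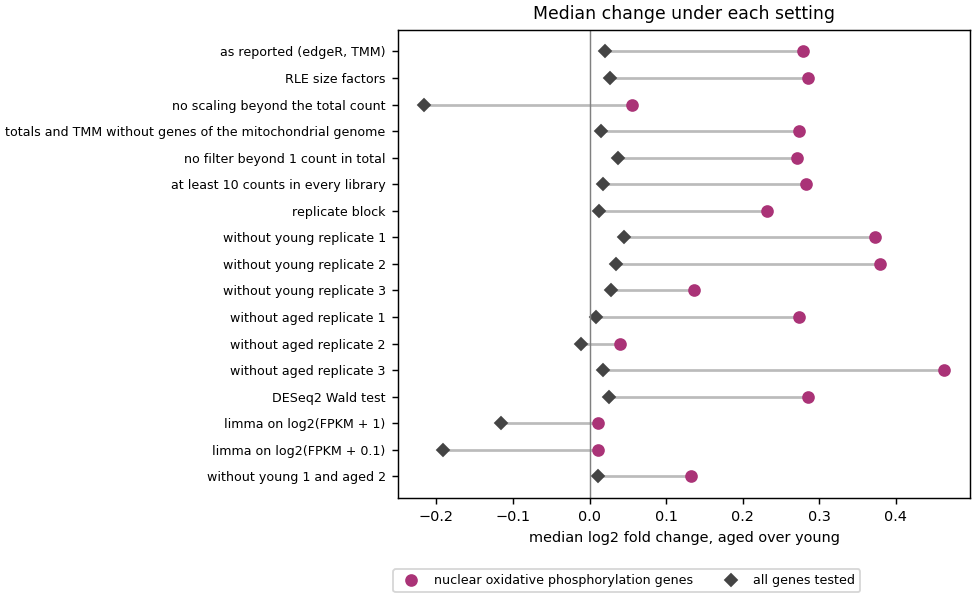
Median log2 fold change of aged over young aorta for the nuclear oxidative phosphorylation genes (circles) and for all genes tested (diamonds) under each way of processing the data. The distance between them is 0.26 with all 6 libraries, 0.05 without aged replicate 2 and 0.45 without aged replicate 3. Both medians shift left when the libraries are scaled by total count or taken from FPKM.

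The promoters were searched for binding motifs of factors known to drive this gene set: nuclear respiratory factor 1 (NRF1), the ETS factor GABP, YY1, SP1 and the CCAAT-binding factor NF-Y. RefSeq windows of 300 bases around the gene start (250 before, 50 after, GRCm38.p6) were found for 66 of the 79 members, 72 windows in all. The letters GCGCATGCG (NRF1) were present on either strand in 8 of these windows, 11.1% against 1.75% of all 32851 windows and 2.35% of the 21262 windows of coding genes. CCGGAAG (ETS) was in 16 (22.2%, against 8.86% of all windows and 11.6% of coding ones) and AAGATGGC (YY1) in 12 (16.7%, against 2.75% and 3.05%). CCAAT was in 29 (40.3%, against 37.4% and 38.2%), and GGGCGG (SP1) in 28 (38.9%), which lay above the 35.7% of all windows but below the 46.2% of coding ones. A match describes the letters and does not show a site in use. The median log2 fold change with age was taken for members with and without the letters. For NRF1 it was 0.30 in 8 genes with and 0.27 in 58 without, and for ETS 0.31 in 16 and 0.26 in 50. For CCAAT it was 0.30 in 28 and 0.25 in 38, and for SP1 0.28 in 27 and 0.27 in 39. For YY1 it was 0.22 in 11 and 0.27 in 55. No spread is attached to these medians, and their differences were not tested. In each complex, the named member with most kinds of motif in the 250 bases before the start is printed below in the direction of its own transcription, with the motif letters in capitals on whichever strand they lie, and bases inside the annotated gene are left out. Ndufv3 (chr17:31519865-31520114, plus strand) has an SP1 and a CCAAT match, Sdhb (chr4:140961021-140961202, plus strand) 3 SP1 matches, and Uqcr10 (chr11:4704345-4704594, minus strand) a CCAAT match 10 bases before the start. The 300-base window of Sdhb also holds ETS and CCAAT letters, outside the bases printed. Cox6a1 (chr5:115348982-115349208, minus strand) has the NRF1 letters on both strands, at 162 and 161 bases before the start, which overlap because the motif reads nearly the same both ways, besides 2 SP1 matches and a CCAAT match. The ETS letters in its 300-base window likewise lie outside the bases printed. Atp5e (chr2:174464106-174464351, minus strand), a member with an unadjusted p under 0.05, has an ETS match 102 bases before the start, 2 CCAAT and 2 SP1 matches.
Ndufv3: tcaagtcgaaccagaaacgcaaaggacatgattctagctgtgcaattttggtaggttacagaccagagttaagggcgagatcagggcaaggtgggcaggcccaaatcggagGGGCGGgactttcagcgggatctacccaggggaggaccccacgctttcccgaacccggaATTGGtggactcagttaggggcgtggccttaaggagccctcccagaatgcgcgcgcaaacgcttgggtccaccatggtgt
Sdhb: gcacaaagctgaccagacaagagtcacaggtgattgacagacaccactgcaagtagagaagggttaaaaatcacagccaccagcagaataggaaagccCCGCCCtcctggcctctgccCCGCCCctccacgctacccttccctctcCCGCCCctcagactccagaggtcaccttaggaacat
Uqcr10: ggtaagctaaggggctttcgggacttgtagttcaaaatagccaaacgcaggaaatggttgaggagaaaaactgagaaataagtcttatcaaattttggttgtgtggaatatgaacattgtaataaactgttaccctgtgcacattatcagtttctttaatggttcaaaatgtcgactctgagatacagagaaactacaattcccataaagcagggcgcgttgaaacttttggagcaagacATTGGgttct
Cox6a1: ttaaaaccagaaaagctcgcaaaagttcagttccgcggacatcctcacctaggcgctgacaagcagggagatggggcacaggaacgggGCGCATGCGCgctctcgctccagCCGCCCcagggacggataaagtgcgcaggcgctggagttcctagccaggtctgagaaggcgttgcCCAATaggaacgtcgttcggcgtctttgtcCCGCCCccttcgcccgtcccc
Atp5e: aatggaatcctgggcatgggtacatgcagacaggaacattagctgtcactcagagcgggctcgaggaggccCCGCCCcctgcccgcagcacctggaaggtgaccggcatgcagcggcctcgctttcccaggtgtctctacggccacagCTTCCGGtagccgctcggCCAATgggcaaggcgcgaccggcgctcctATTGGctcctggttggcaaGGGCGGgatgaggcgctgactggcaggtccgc

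Complex I, the NADH dehydrogenase, has 7 core nuclear subunits that carry the flavin and iron-sulfur centres and many accessory ones. All 7 core genes and 28 of 30 accessory genes were above 0, with medians of 0.30 and 0.27 on the log2 scale, and the core genes were all highest in aged replicate 2. Ndufa6, an accessory subunit with the smallest p of all members, was at 51.6, 35.5 and 29.8 CPM in the young and 56.96, 72.3 and 53.3 CPM in the aged libraries. The groups did not overlap on this scale, though in FPKM young replicate 1 (27.3 FPKM) was above aged replicates 1 and 3 (27.0 and 23.9 FPKM). Its log2 fold change was 0.64 ± 0.24 (SE), with an edgeR p of 0.031 and an adjusted p of 0.44, and without aged replicate 2 it was 0.50 ± 0.25. Ndufa5, another accessory subunit, was at 33.9, 34.7 and 30.2 CPM in young and 37.3, 47.4 and 34.0 CPM in aged aorta, where the groups overlapped. Its log2 fold change was 0.27 ± 0.17 with an edgeR adjusted p of 0.62.

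The most abundant complex I genes by FPKM showed the same spread. Ndufa1, an X-linked accessory subunit, was at 35.8, 30.5 and 24.2 CPM in the young libraries and 46.7, 46.3 and 26.2 CPM in the aged. Ndufb3 was at 61.8, 54.6 and 44.7 CPM in young and 72.5, 86.8 and 47.9 CPM in aged aorta. In both genes aged replicate 3 lay among the young libraries, and the log2 fold changes of 0.40 ± 0.27 and 0.36 ± 0.25 (SE) had edgeR adjusted p of 0.62 and 0.63. The 2 complex I genes below 0 were Ndufb10, a membrane arm accessory subunit, and Ndufv3, an accessory subunit of the NADH-oxidizing module. Ndufb10 was at 71.2, 78.1 and 58.5 CPM in young and 66.1, 69.6 and 52.0 CPM in aged aorta, a log2 fold change of -0.15 ± 0.18. Ndufv3 was at 136.2, 106.3 and 95.2 CPM in young and 113.7, 121.8 and 74.0 CPM in aged aorta, a log2 fold change of -0.13 ± 0.24 that turned to 0.04 without young replicate 1 and to 0.07 without aged replicate 3.

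Complex II, succinate dehydrogenase, is also an enzyme of the citric acid cycle and has no subunit coded in mitochondria. Sdha, the flavoprotein that oxidizes succinate, was at 201.0, 269.4 and 147.6 CPM in the young libraries and 148.3, 515.0 and 144.4 CPM in the aged. Aged replicates 1 and 3 were level with the lowest young library, and aged replicate 2 stood 3.52-fold above their mean. The log2 fold change of 0.39 ± 0.52 (edgeR adjusted p = 0.81) became -0.49 ± 0.26 without aged replicate 2. Sdhb, the iron-sulfur subunit, was at 79.7, 87.0 and 49.4 CPM in young and 75.4, 176.5 and 60.5 CPM in aged aorta. The membrane anchors followed the same order, Sdhd with 75.4, 92.0 and 58.1 CPM against 76.8, 135.6 and 55.6 CPM, and Sdhc with 96.9, 113.3 and 84.6 CPM against 102.9, 135.5 and 78.8 CPM. Aged replicate 2 was the highest library for all 4 genes, and its excess ran from 1.49-fold for Sdhc to the value for Sdha. Without it the log2 fold changes of Sdhb, Sdhc and Sdhd, 0.53, 0.11 and 0.25 with all libraries, became -0.08, -0.11 and -0.18.

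Complex III, the cytochrome bc1 complex, had all 9 genes above 0 and all 9 highest in aged replicate 2. Uqcrc2, a core protein on the matrix side, was at 127.7, 153.3 and 82.3 CPM in the young and 110.2, 308.8 and 98.7 CPM in the aged libraries. Its log2 fold change of 0.51 ± 0.47 (edgeR adjusted p = 0.71) became -0.21 ± 0.27 without aged replicate 2. The smallest p in this complex belonged to Uqcrb, at 101.4, 98.4 and 65.0 CPM in young and 115.3, 156.5 and 89.2 CPM in aged aorta, and the log2 fold change was 0.45 ± 0.26 and an edgeR adjusted p of 0.58. Here aged replicate 1 too was above the young libraries, and the value without aged replicate 2 was 0.21. Uqcr10 was at 69.5, 70.2 and 52.8 CPM against 79.9, 100.3 and 52.0 CPM, and its log2 fold change of 0.27 ± 0.26 became 0.04. The largest excess of aged replicate 2 over the other aged libraries among all members, 3.53-fold, was that of Uqcrfs1, the Rieske iron-sulfur protein, named here after its value was seen.

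**Figure D3:**
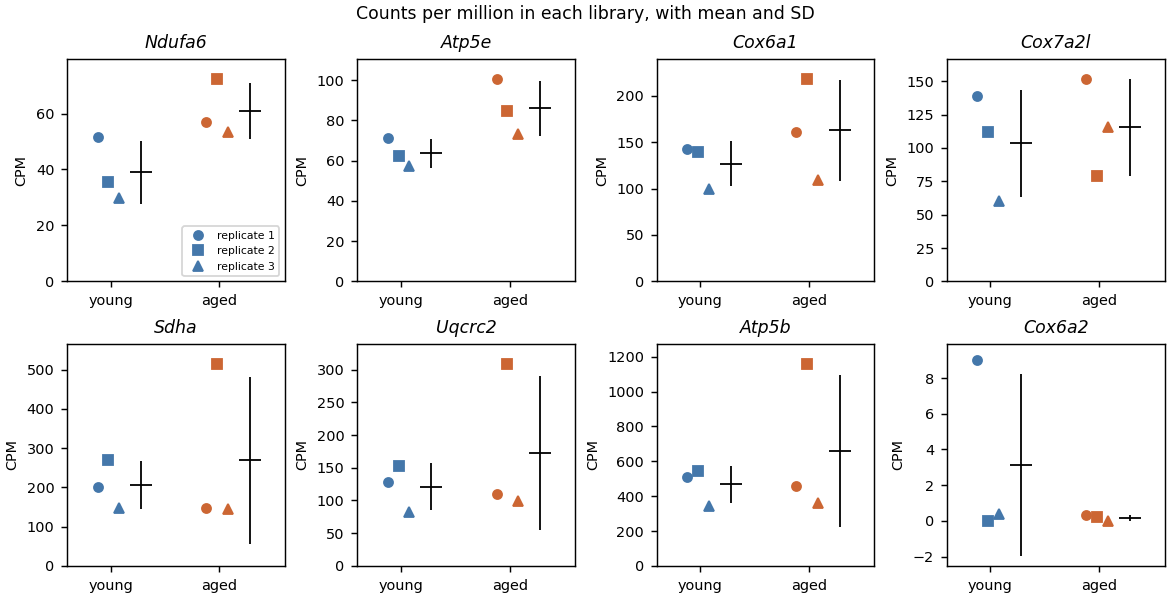
CPM of 8 genes in each young and aged library, with a marker shape per replicate number (which does not pair mice) and the mean and SD of 3 libraries beside them. Every aged library lies above the young ones for Ndufa6 and Atp5e on this scale, though not in FPKM, aged replicate 2 lies far above all others for Sdha, Uqcrc2 and Atp5b, and Cox6a2 is high in young replicate 1 alone.

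Complex IV, cytochrome c oxidase, had 11 of 12 genes above 0 and 9 highest in aged replicate 2. Cox6c, a small structural subunit, was at 101.4, 99.2 and 86.7 CPM in young and 146.7, 162.3 and 82.4 CPM in aged aorta. Its aged values included both the highest and the lowest of the 6 libraries, and the log2 fold change was 0.45 ± 0.26 with an edgeR adjusted p of 0.58. Cox7c was at 91.5, 93.8 and 63.8 CPM against 108.8, 129.2 and 84.0 CPM, with a log2 fold change of 0.37 ± 0.23 and an edgeR adjusted p of 0.59, and pseudogenes that share its sequence held counts equal to 17.8% of its own. Cox6b1, which faces the intermembrane space, was at 115.5, 123.1 and 70.2 CPM against 123.0, 170.7 and 78.4 CPM. Its log2 fold change of 0.27 ± 0.33 became -0.03 without aged replicate 2.

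Cox6a has a widely expressed form, Cox6a1, and a form of heart and skeletal muscle, Cox6a2. Cox6a1 was at 142.3, 139.2 and 99.4 CPM in the young and 161.1, 217.7 and 109.4 CPM in the aged libraries, with a log2 fold change of 0.36 ± 0.28 and an edgeR adjusted p of 0.66. Cox6a2 had 437, 0 and 13 counts in the young and 11, 9 and 0 counts in the aged libraries. It was thus nearly confined to young replicate 1, where it made up 6.13% of the FPKM of both forms, against at most 0.362% in the other libraries. The log2 fold change was -4.00 ± 1.92 (SE) with an edgeR adjusted p of 0.52, and without young replicate 1 the gene no longer had enough reads to be tested. Heart muscle markers moved with it: Myh6, the cardiac alpha myosin, was at 79.7 CPM in that library against 0.87 to 13.1 CPM in the others, and Tnni3, cardiac troponin I, at 49.8 CPM against 2.37 to 5.66 CPM, while Myl2 was at 0 in 3 libraries. Their part in the value of Cox6a2 was not tested.

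Cox7a2 and Cox7a2l are related proteins, the former a subunit of complex IV and the latter a factor that joins complexes III and IV into supercomplexes. They ordered the aged libraries differently. Cox7a2 was at 74.5, 61.1 and 40.2 CPM in young and 64.8, 92.5 and 51.9 CPM in aged aorta, highest in aged replicate 2 with 1.58-fold the mean of the other aged libraries. Cox7a2l was at 138.9, 112.0 and 60.1 CPM in young and 151.4, 79.2 and 115.5 CPM in aged aorta, and in aged replicate 2 it was at 0.594-fold the mean of the others. The log2 fold changes were 0.25 ± 0.29 and 0.16 ± 0.35, with edgeR adjusted p of 0.78 and 0.89, and leaving out aged replicate 2 moved them to -0.01 and 0.37.

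Complex V, the ATP synthase, followed aged replicate 2 least, with 6 of 17 genes highest there and 8 highest in aged replicate 1. The 2 large subunits of the catalytic head followed it most. Atp5b was at 510.6, 545.7 and 345.3 CPM in young and 459.1, 1159 and 361.6 CPM in aged aorta, and Atp5a1 at 459.1, 456.8 and 331.5 CPM against 401.0, 794.4 and 321.0 CPM. Aged replicate 2 exceeded the mean of the other aged libraries 2.82-fold for Atp5b and 2.20-fold for Atp5a1. Their log2 fold changes of 0.50 ± 0.44 and 0.28 ± 0.35 (edgeR adjusted p = 0.70 and 0.79) became -0.19 and -0.20 without it.

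Atp5e, the epsilon subunit in the central stalk, was at 71.3, 62.3 and 57.2 CPM in the young and 100.4, 84.4 and 73.2 CPM in the aged libraries. Every aged library was above every young one, by the smallest margin between aged replicate 3 and young replicate 1. In FPKM aged replicate 3 (33.7 FPKM) was below young replicates 1 and 2 (38.8 and 34.9 FPKM). The log2 fold change was 0.44 ± 0.18 with an edgeR p of 0.041 and an adjusted p of 0.46. Without aged replicate 2 it was 0.45 ± 0.20, so the size of the change did not rest on that library, though the edgeR p was then 0.061. Without aged replicate 1, its highest library, the log2 fold change was 0.31. Atp5h, subunit d of the peripheral stalk, was at 156.5, 127.4 and 89.9 CPM against 187.0, 179.9 and 129.8 CPM, with a log2 fold change of 0.41 ± 0.25 and 0.35 without aged replicate 2. Atp5j, coupling factor 6, was at 88.3, 69.4 and 70.5 CPM against 110.0, 93.6 and 75.03 CPM, with a log2 fold change of 0.29 ± 0.19. Their edgeR adjusted p were 0.59 and 0.63. Reads of pseudogenes that share sequence with Atp5h came to 14.2% of its own counts.

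Subunit c, which forms the rotating ring, is coded by Atp5g1, Atp5g2 and Atp5g3, whose precursors differ in the import signal and give the same mature protein. Atp5g1 was at 43.3, 32.3 and 32.2 CPM in young and 55.8, 27.9 and 38.4 CPM in aged aorta, and aged replicate 2 was its lowest library, at 0.592-fold the mean of the other aged ones. Atp5g2 was at 57.6, 51.6 and 42.3 CPM against 75.2, 56.7 and 51.2 CPM, and Atp5g3 at 72.4, 50.04 and 49.3 CPM against 72.8, 61.8 and 58.1 CPM. All 3 genes were highest in aged replicate 1. Of the summed FPKM of the 3 genes, Atp5g1 took 11.5 ± 0.6% in young and 11.0 ± 2.3% in aged aorta, Atp5g2 47.5 ± 3.2% and 49.0 ± 1.7%, and Atp5g3 41.0 ± 2.7% and 40.0 ± 2.4% (SD, n = 3), so the shares differed by less than the spread between replicates. FPKM is scaled to gene length, and the annotated exon length was 4912 bases for Atp5g1, 1675 for Atp5g2 and 2181 for Atp5g3. The low share of Atp5g1 thus depends in part on its annotated length. The log2 fold changes of the 3 genes were 0.18 ± 0.27, 0.27 ± 0.20 and 0.17 ± 0.20. Pseudogenes sharing 50-base stretches held counts equal to 22.2% of those of Atp5g1 and 43.5% of those of Atp5g2, so these levels are uncertain.

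**Figure D4:**
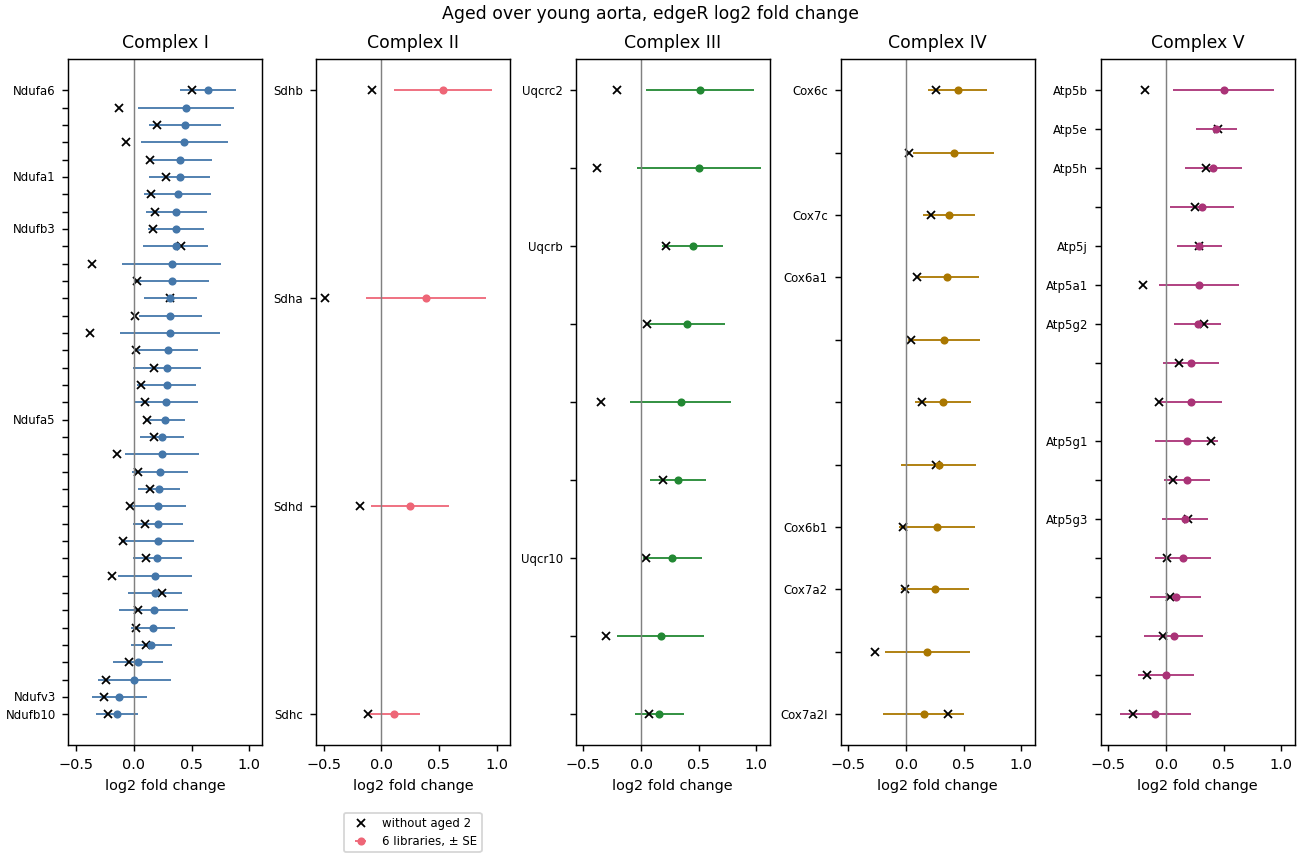
Log2 fold change of aged over young aorta for 78 members by complex, as fitted by edgeR with all 6 libraries (coloured points, bars are the SE) and without aged replicate 2 (crosses). The genes described in the text are labelled, and Cox6a2, at -4.00, is left out to keep the axis readable. Without aged replicate 2 the 4 complex II genes lie below 0, while Atp5e stays at 0.45.

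How far a member stood out in aged replicate 2 differed within and between complexes. The median fold of that library over the mean of the other aged libraries was 1.42 over the members, against 0.974 over all genes tested. It was 2.30 in complex II, 1.80 in complex III, 1.498 in complex IV, 1.42 in complex I and 1.19 in complex V. Over 2-fold were 14 members, 4 of them in complex I, 3 in complex II, 4 in complex III, 1 in complex IV and 2 in complex V, and 7 members were below 1. Within complex I the 7 core genes had a median of 1.63 and the 30 accessory genes one of 1.32. Across the 37 complex I genes the log2 of this fold had a Pearson r of 0.53 (Spearman 0.42) with exon length, across the 17 complex V genes an r of 0.14 (Spearman 0.23), and across 78 members without Cox6a2 an r of 0.26 (Spearman 0.23). These are correlations across genes of the same libraries, not over independent replicates.

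The brown adipocyte markers moved with this excess. Of the 12 on the list, 9 were highest in aged replicate 2, with a median of 15.1-fold over the other aged libraries, and 2 of them are muscle and brown fat forms of complex IV subunits. Cox7a1 was at 10.1, 16.7 and 2.27 CPM in the young and 1.84, 41.5 and 2.58 CPM in the aged libraries, and Cox8b at 16.0, 36.8 and 5.80 CPM against 4.96, 54.2 and 4.32 CPM. Ucp1, at 153.0, 360.6 and 45.2 CPM against 48.6, 1422 and 67.4 CPM, and Cidea, at 63.8, 162.1 and 29.0 CPM against 17.6, 310.9 and 17.98 CPM, were likewise highest in aged replicate 2 and next highest in young replicate 2. No listed marker was at 0 in any library. Prdm16, a regulator of brown fat identity, and Dio2, which activates thyroid hormone, did not follow, with Prdm16 at 92.2, 94.6 and 99.7 CPM against 50.9, 77.8 and 70.0 CPM, and Dio2 at 42.3 CPM in aged replicate 2 against 109.3 and 86.1 CPM in the other aged libraries. The pattern was not particular to brown fat markers. Of 12 white adipocyte markers, 9 were also highest in aged replicate 2, with a median of 4.46-fold over the other aged libraries. The part of brown or white fat RNA in the members' levels was not tested.

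**Figure D5:**
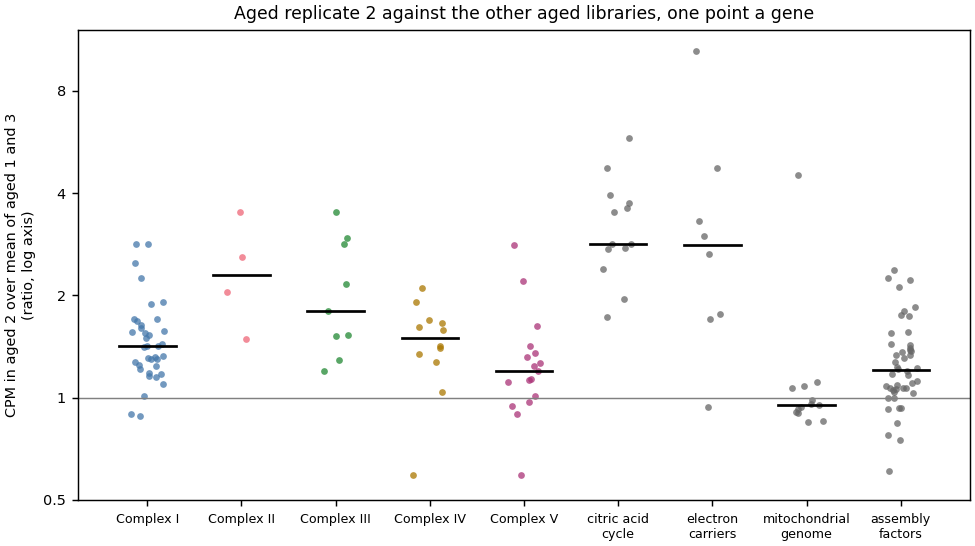
CPM in aged replicate 2 over the mean of aged replicates 1 and 3 on a log axis, with a point per gene and a bar at the median, for the members by complex and for 4 other gene lists. The medians are 2.30 in complex II and 1.19 in complex V, 2.84 for citric acid cycle enzymes, and 0.951 for the genes of the mitochondrial genome, where mt-Atp6 lies at 4.51.

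The enzymes that feed the chain shared this pattern. Of 13 citric acid cycle genes outside complex II, all were above 0 and all were highest in aged replicate 2, with a median log2 fold change of 0.43, 0 at an unadjusted p under 0.05 and a median 2.84-fold excess in that library. Ogdh, a subunit of the oxoglutarate dehydrogenase complex, was at 230.8, 327.7 and 227.5 CPM in young and 196.8, 551.5 and 192.5 CPM in aged aorta. Mdh2, malate dehydrogenase, was at 141.2, 163.1 and 101.9 CPM against 154.6, 285.6 and 138.6 CPM. Of 8 electron carrier genes, 7 were highest in aged replicate 2, among them Cycs, somatic cytochrome c, at 87.8, 99.0 and 48.1 CPM against 72.5, 233.3 and 68.2 CPM, and Gpd2, the glycerol phosphate dehydrogenase of the inner membrane, at 40.2, 50.5 and 18.8 CPM against 15.1, 212.4 and 25.3 CPM.

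The 13 protein genes of the mitochondrial genome, the partners of these subunits, did not share it. All 13 were above 0, with a median log2 fold change of 0.83, and 12 were highest in aged replicate 3. At an edgeR unadjusted p under 0.05, 12 were higher in the aged group, where 5.56% of all genes were. In TMM-scaled CPM 11 had every aged library above every young one (7.74% of all genes). One of them, mt-Nd5, overlapped in FPKM, with young replicate 1 at 5359 FPKM and aged replicate 1 at 5074 FPKM. None passed edgeR's adjusted p of 0.05, and DESeq2 called 5, where it called 2.03% of all genes. mt-Nd3 of complex I was at 773.6, 593.7 and 468.8 CPM in young and 1078, 1119 and 1276 CPM in aged aorta, a log2 fold change of 0.92 ± 0.22 with an edgeR adjusted p of 0.38. mt-Co1, the catalytic subunit of complex IV, was at 74821, 53568 and 44687 CPM against 89723, 97030 and 125491 CPM. As a ratio of summed CPM, mitochondrial genome to nuclear members, the libraries were at 29.6, 22.3 and 28.5 in young and 34.6, 27.8 and 67.5 in aged aorta, so aged replicate 2 lay among the young libraries. The exception was mt-Atp6, at 2621, 2318 and 9140 CPM in young and 3732, 18636 and 4529 CPM in aged aorta, which followed none of the other mitochondrial genes.

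Assembly factors and regulators had smaller median changes than the members and followed aged replicate 2 in part. It was the highest library for 20 of 46 assembly factors and 7 of 13 regulators, with median folds over the other aged libraries of 1.21 and 1.23. Of 46 assembly factors, 33 were above 0 (52.1% of all genes), with a median log2 fold change of 0.10. At an edgeR unadjusted p under 0.05, 0 were higher (5.56% of all genes) and 2 were lower (4.82% of all genes). These were Ndufaf4, which helps to assemble complex I, at 20.4, 24.0 and 4.43 CPM in young and 3.76, 6.28 and 6.48 CPM in aged aorta, and Pet117, a complex IV factor, at 1.57, 2.64 and 3.47 CPM against 1.53, 0.80 and 1.203 CPM, with log2 fold changes of -1.56 ± 0.58 and -1.12 ± 0.45 and edgeR adjusted p of 0.44 and 0.46. In Ndufaf4, young replicate 3 lay among the aged libraries. Of 13 regulators of mitochondrial biogenesis that were tested, 7 were above 0 (52.1% of all genes), with a median of 0.02 and 0 at an edgeR unadjusted p under 0.05. The smallest p were those of Pprc1, a coactivator related to PGC-1, at 16.4, 29.8 and 36.0 CPM in young and 12.2, 16.9 and 20.4 CPM in aged aorta, and of Polrmt, the mitochondrial RNA polymerase, at 15.7, 18.2 and 19.2 CPM against 12.6, 15.4 and 13.2 CPM, with edgeR adjusted p of 0.50 and 0.52. Ndufa4l2, a hypoxia-induced relative of Ndufa4 that is not a member, was at 4.97, 4.63 and 5.68 CPM in young and 26.1, 5.27 and 18.7 CPM in aged aorta, and the log2 fold change was 1.71 ± 0.52, an edgeR adjusted p of 0.39 and a DESeq2 adjusted p of 0.042. In contrast to the members, its low aged library was replicate 2.

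The other cell markers showed where the aged libraries differed among themselves. Fibroblast markers summed to 4682, 4838 and 6044 CPM in young and 10850, 3408 and 7611 CPM in aged aorta, and macrophage markers to 148.5, 116.7 and 111.1 CPM against 503.6, 156.8 and 343.0 CPM, so aged replicate 2 was the lowest aged library in both. White adipocyte markers summed to 1629, 2516 and 1142 CPM against 1232, 3937 and 1731 CPM, skeletal muscle markers to 26.3, 10.6 and 10.7 CPM against 14.3, 25.6 and 16.9 CPM, and erythroid markers to 430.6, 580.9 and 673.1 CPM against 642.9, 391.8 and 878.4 CPM. Smooth muscle markers summed to 34102, 36186 and 42441 CPM against 34734, 31135 and 29487 CPM. Young replicate 3, the lowest library for 56 members, thus held the most smooth muscle marker RNA, and the part of these markers in the members' levels was not tested.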

How the data were processed

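Aortas of 6 mice were sequenced single-ended for 50 cycles, with 1 library per mouse. The deposited files are a table of read counts per gene and a table of FPKM that the authors derived from it. The mm10 build comes from the submitters' processing notes, and aligner, counter, strand setting and annotation are not given in the sources used here. Every value column was mapped to a sample (0 were not). Counts were tested with edgeR 4.0.16 in R 4.3.3 (quasi-likelihood, TMM, filterByExpr with a minimum count of 10, no covariates), with Benjamini-Hochberg adjustment over all 16612 genes tested and a threshold of 0.05. DESeq2 1.42.0 and limma 3.58.1 on log2(FPKM + 1) and log2(FPKM + 0.1) were alternatives. Scripts were tested on simulated data. CPM are TMM-scaled. Libraries held from 31049632 to 45832185 counts, and no pair of them held identical values. The named members are the 2 highest by FPKM in each complex, the 10 smallest p, the 3 highest and 3 lowest changes, the isoform groups and the 4 Sdh genes, and of each other list the 2 smallest p and 2 highest CPM. The members and lists were chosen with earlier results of these data known. Chromosome positions and windows come from RefSeq GRCm38.p6, and sequence shared with other genes was counted as 50-base stretches of GENCODE transcripts. Of 79 members, 19 shared over 10% of these stretches with another gene and 29 had exons overlapping another gene. A few genes that the rule names are not reported here.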

Additional observations from a re-analysis of the deposited data

How the results depend on the processing

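The count of members called by adjusted p was 0 under every alternative run. DESeq2 called 338 genes of the whole table. Members at an unadjusted p under 0.05 numbered 2 as reported, where 1723 of 16612 genes were in either direction. They numbered 0 with total-count scaling (2933 of 16612 genes) and 1 with no filter beyond 1 count in total (2026 of 27806). With limma on log2(FPKM + 1) or log2(FPKM + 0.1) they numbered 0 (2667 and 2663 of 16612 genes). When a library was left out they ran from 0 (without young replicate 3, 1061 of 17306 genes) to 10 (without aged replicate 3, 1244 of 17445 genes). Members above 0 numbered 48 with total-count scaling and 40 with either limma setting, and from 49 (without aged replicate 2) to 77 (without aged replicate 3) when a library was left out, with the median running from 0.04 to 0.46. The same omissions moved the complex medians from 0.06 to 0.45 (I), -0.15 to 0.59 (II), 0.04 to 0.62 (III), 0.07 to 0.52 (IV) and 0.06 to 0.39 (V), and the number of genes called in the whole table from 0 to 110.

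With total-count scaling the log2 fold change was below 0 for Cox7a2l (-0.073), Atp5g1 (-0.051), Atp5g3 (-0.063) and Sdhc (-0.12). With limma at a pseudocount of 1 it was below 0 for Sdhd (-0.044), Sdha (-0.060), Atp5a1 (-0.034), Cox7a2l (-0.030), Atp5g1 (-0.070), Atp5g3 (-0.036) and Sdhc (-0.13), and at 0.1 these were -0.046, -0.065, -0.035, -0.030, -0.084, -0.037 and -0.14. In these 3 settings the median of all genes moved to -0.22, -0.12 and -0.19. With young replicate 1 and aged replicate 2 both left out, an alternative chosen after seeing the data, it was below 0 for Sdhb (-0.0018), Uqcrc2 (-0.17), Sdhd (-0.18), Sdha (-0.51), Atp5a1 (-0.12), Atp5b (-0.12) and Sdhc (-0.12). Leaving out single libraries turned the sign of Atp5a1 (-0.20 to 0.52), Atp5b (-0.19 to 0.79), Atp5g1 (-0.12 to 0.39), Cox6b1 (-0.030 to 0.51), Cox7a2 (-0.0064 to 0.47), Cox7a2l (-0.11 to 0.43), Ndufv3 (-0.26 to 0.066), Sdha (-0.49 to 0.69), Sdhb (-0.083 to 0.81), Sdhc (-0.11 to 0.28), Sdhd (-0.18 to 0.50) and Uqcrc2 (-0.21 to 0.79). Beyond the scalings and omissions themselves, the cause was not tested.

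With the replicate number as a block, 5 members and 1782 of 16612 genes were at an edgeR unadjusted p under 0.05, and 0 members were called. Same-numbered libraries deviated together with correlations of 0.08, 0.13 and 0.13, and the labels tie the numbers to no shared animal or batch, so the block was not used. Each group had 3 mice. Young replicate 1 did not match the male sex that the study describes, and aged replicate 2 was rich in brown and white fat markers. The spread within a group limits what these data can show, and in 41 of 79 members the SE exceeded the change.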
